A study of Mus musculus with 12 samples.

Results

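The genes described here are 37 interferon-stimulated effector genes of the mouse that lie outside the OAS, IFIT, immunity-related and guanylate-binding GTPase, MHC and ISGylation families. They were taken by gene symbol from a fixed list of names. No measured value entered the rule, but the list was drawn up with earlier results of these data known. All 37 were found in each of the 2 deposited count tables, among 29736 genes listed for LSK and 31042 listed for GMP. All 37 also passed the filter on low counts in each cell type. Mx2 in GMP, with 0 counts in all 3 controls, passed only through its agonist libraries. Others, such as Mx1 in LSK with 0 counts in control replicates 2 and 3, also needed agonist libraries to pass. By role they are 2 Mx GTPases, 7 RNA and nucleotide enzymes, 2 HIN-200 proteins, 3 TRIM proteins, 3 proteins of PML nuclear bodies, 6 genes of the PARP family with its partner Dtx3l, 2 members of the IFP35 family, 5 membrane or death-related genes, 2 genes of the galectin group and 5 others.

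The libraries came from bone marrow of melanoma-bearing C57BL/6 mice that had received diABZI, a small-molecule agonist of the DNA-sensing adaptor STING, or were controls. RNA was amplified by Smart-Seq2, which copies and amplifies full-length cDNA from very little RNA. Each of the cell types, LSK and GMP, was represented by 3 libraries from controls and 3 from mice given the STING agonist, 12 libraries in 4 groups. LSK stands for lineage-negative cells with Sca-1 and Kit on their surface, and GMP for granulocyte-monocyte progenitors. All 4 groups share the C57BL/6 strain, the bone marrow source and, per the series title, the melanoma model. The labels describe single-cell samples, yet give neither the number of cells or mice behind a library nor the age of the mice, the dose, the time or what the controls received. Because no label ties replicate numbers to separate animals, p-values reflect only how much these libraries vary, and that variation may be technical.

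Type I interferon binds its receptor on nearly every cell and, through receptor-bound kinases, activates transcription factors that bind interferon-stimulated response elements in promoters. Interferon gamma acts through GAS elements. STING, once activated, drives interferon production through TBK1 and IRF3, and haematopoietic progenitors respond to interferon themselves. The products of these genes act at many steps: they degrade or unwind RNA, sense DNA, tag proteins with ubiquitin or ADP-ribose, organise nuclear bodies or alter cell death.

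The promoters of 3 genes are shown. Xaf1 passed the test described below in both cell types, and Trim30a passed it in LSK-labelled cells. Parp11 passed it in neither and is one of the genes with a smaller fitted change in GMP. The last pair was chosen after their values were seen. Each run holds the 150 bases before the RefSeq start site in GRCm38.p6, read 5′ to 3′ along the gene, and overlaps no annotated exon. They lie at chr11:72301479-72301628 on the plus strand, chr7:104465194-104465343 on the minus strand and chr6:127446690-127446839 on the plus strand. Capitals mark matches to the core of the interferon-stimulated response element, GAAANNGAA, or to the GAS core, TTCNNNGAA, each searched on both strands.
Xaf1: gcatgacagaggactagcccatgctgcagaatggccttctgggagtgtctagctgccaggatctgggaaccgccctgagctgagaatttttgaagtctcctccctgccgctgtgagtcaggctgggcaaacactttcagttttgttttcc
Trim30a: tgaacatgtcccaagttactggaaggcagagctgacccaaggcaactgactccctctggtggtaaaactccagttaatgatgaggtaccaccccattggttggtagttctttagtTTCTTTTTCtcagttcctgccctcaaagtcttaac
Parp11: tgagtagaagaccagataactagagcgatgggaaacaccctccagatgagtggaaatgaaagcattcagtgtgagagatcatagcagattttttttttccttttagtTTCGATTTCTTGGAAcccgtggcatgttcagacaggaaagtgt

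In the Trim30a window a match to the response element core on the reverse strand began 35 bases before the start, and in the Parp11 window a reverse-strand match 43 bases before the start overlapped a GAS match that began 37 bases before it. The Xaf1 window held neither run of letters. RefSeq promoters, 300 bases long with 250 before and 50 after the start, were matched for 28 of the 37 genes. Tor3a, Mx2, Ifi204, Ifi27l2a, Parp14, Mx1, Parp10, Rtp4 and Parp9 had no matched promoter. The response element core was present in 11 of the 28 genes (39.3%), namely Ifi203, Ifi44, Lgals9, Ogfr, Parp11, Samd9l, Shisa5, Tdrd7, Trim21, Trim30a and Trim34a, against 9.76% of the 27025 genes in the RefSeq table. The GAS core was present in 4 (14.3%), namely Ifi35, Isg20, Parp11 and Shisa5, against 9.55%. These shares count a gene if any of its promoters matched. Counted by promoter, the response element core was in 12 of 44, against 8.56% of all 32851 promoters. The GAS core was in 4 of 44, against 8.30%. These matches describe letters in a window and not bound sites.

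Library totals ran from 30649314 to 47225983 counts. Genes with at least 1 count numbered 15099 to 20870, except in STING agonist replicate 1, with 22280 in LSK and 24971 in GMP. Mitochondrial genes held 1.70 to 2.41% of counts in LSK controls and 2.72 to 3.61% after agonist, and 2.13 to 3.52% and 1.24 to 1.96% in GMP. Ly6a, the Sca-1 gene that should mark LSK cells, stood at 0.402 to 0.827 CPM (counts per 1000000 counts of the library) in LSK controls and 5.31 to 9.07 CPM after agonist. The 8 erythroid genes examined, Car1 and Car2 among them, summed to 8906 to 13566 CPM in LSK controls and 10689.7 to 14827 CPM after agonist, against 82.3 to 89.6 and 47.2 to 54.2 CPM in GMP. The group is therefore called LSK-labelled. Its sums of 6 GMP markers ran from 486 to 4165 CPM in controls and from 1310.0 to 10871 CPM after agonist. Over 9 megakaryocyte genes, all listed, its sums were 114 to 276 CPM in controls and 27.1 to 47.6 CPM after agonist. Megakaryocyte sums in GMP, with 8 of the 9 listed, were 28.5 to 95.1 CPM in controls and 20.2 to 35.0 CPM after agonist, where Pf4 fell by 4.93 ± 0.69 on the log2 scale (edgeR adjusted p = 0.0163). The 6 monocyte and macrophage genes summed to 0.0212 to 175 CPM in LSK-labelled controls and 43.1 to 446 CPM after agonist, and to 1809 to 2469.9 and 2306 to 2440.0 CPM in GMP. The 6 mature neutrophil genes summed to 1.27 to 5.14 CPM in LSK-labelled controls and 4.48 to 367 CPM after agonist, with the highest value in replicate 3. In GMP those neutrophil sums were 16.2 to 375 CPM in controls, highest in replicate 3, and 5.79 to 19.7 CPM after agonist. Genes of T, NK and B cells stayed at or below 4.57 CPM in sum in every library. The part of these differences in the results below was not tested. In such bulk libraries fewer cells of a type and less RNA per cell cannot be told apart.

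In LSK-labelled cells the 37 genes together took up 2150.2 to 2521 CPM in control libraries and 6284 to 8664 CPM after the agonist. Without Lgals9, the most abundant of them, the range was 1134 to 1506 CPM in controls and 3333 to 3904 CPM after the agonist. By edgeR's quasi-likelihood test with Benjamini-Hochberg adjustment over all genes, 8 of the 37 rose at an adjusted p of at most 0.05 and 0 fell, against 0.338% of all 13922 genes tested that rose. Here and below, called, passed and rose refer to this edgeR test unless another tool is named. The 8 were Xaf1, Rtp4, Lgals9, Nmi, Trim30a, Rnf213, Parp9 and Ifi35, with adjusted p from 0.00727 to 0.0323. In 27 of the 37 every agonist library lay above every control library, as did 7.13% of all genes. The log2 change was positive for 36, with Daxx at -0.16, and its median was 1.71 against 0.02 over all genes. A log2 change of at least 1 was measured for 27 genes, against 10.0% of all genes, and an unadjusted p under 0.05 for 26, against 11.8%. The number called depended on single libraries. It was 2, 4 and 1 without control replicate 1, 2 and 3, and 0, 3 and 6 without STING agonist replicate 1, 2 and 3.

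In GMP the sum was 1448 to 1640.1 CPM in controls and 2751 to 2822 CPM after the agonist. There 9 of the 37 rose and 0 fell by the same test, against 0.386% of 15027 genes that rose. They were Ifi44, Rtp4, Xaf1, Ifi27l2a, Mx2, Shisa5, Ifi204, Epsti1 and Rnf213, with adjusted p from 0.000577 to 0.0454. No overlap, with all agonist libraries above all controls, was seen for 28 genes, against 6.29% of all genes. The median log2 change was 1.09 against -0.04 over all genes, and it stayed 1.09 with Mx2 set to its lower bound. All but Znfx1 had a positive log2 change, 20 had one of at least 1 (5.48% of all genes), and 27 had an unadjusted p under 0.05 (9.14% of all genes). Without control replicate 1, 2 or 3 the number called was 6, 9 and 9, and without any 1 of the 3 agonist libraries it was 2, namely Rtp4 and Ifi44.

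**Figure D1:**
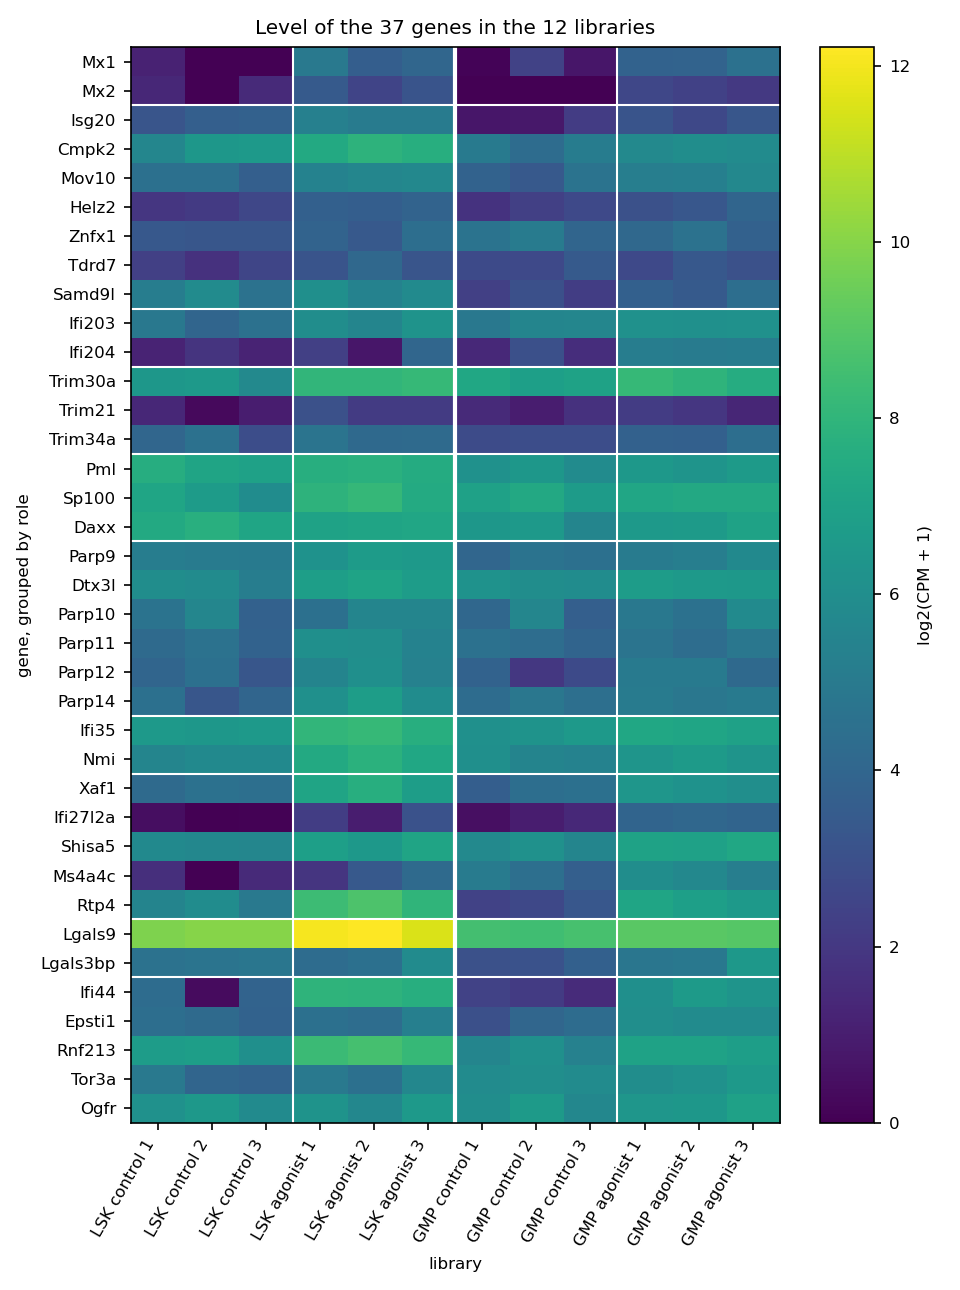
Level of each of the 37 genes (rows, grouped by role) in each of the 12 libraries (columns) as log2(CPM + 1), on a colour scale from dark (low) to yellow (high). Lgals9 is the brightest row, up to 4759.9 CPM in LSK STING agonist replicate 2, and the Mx1 and Mx2 rows are dark in all 6 control libraries.

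**Figure D2:**
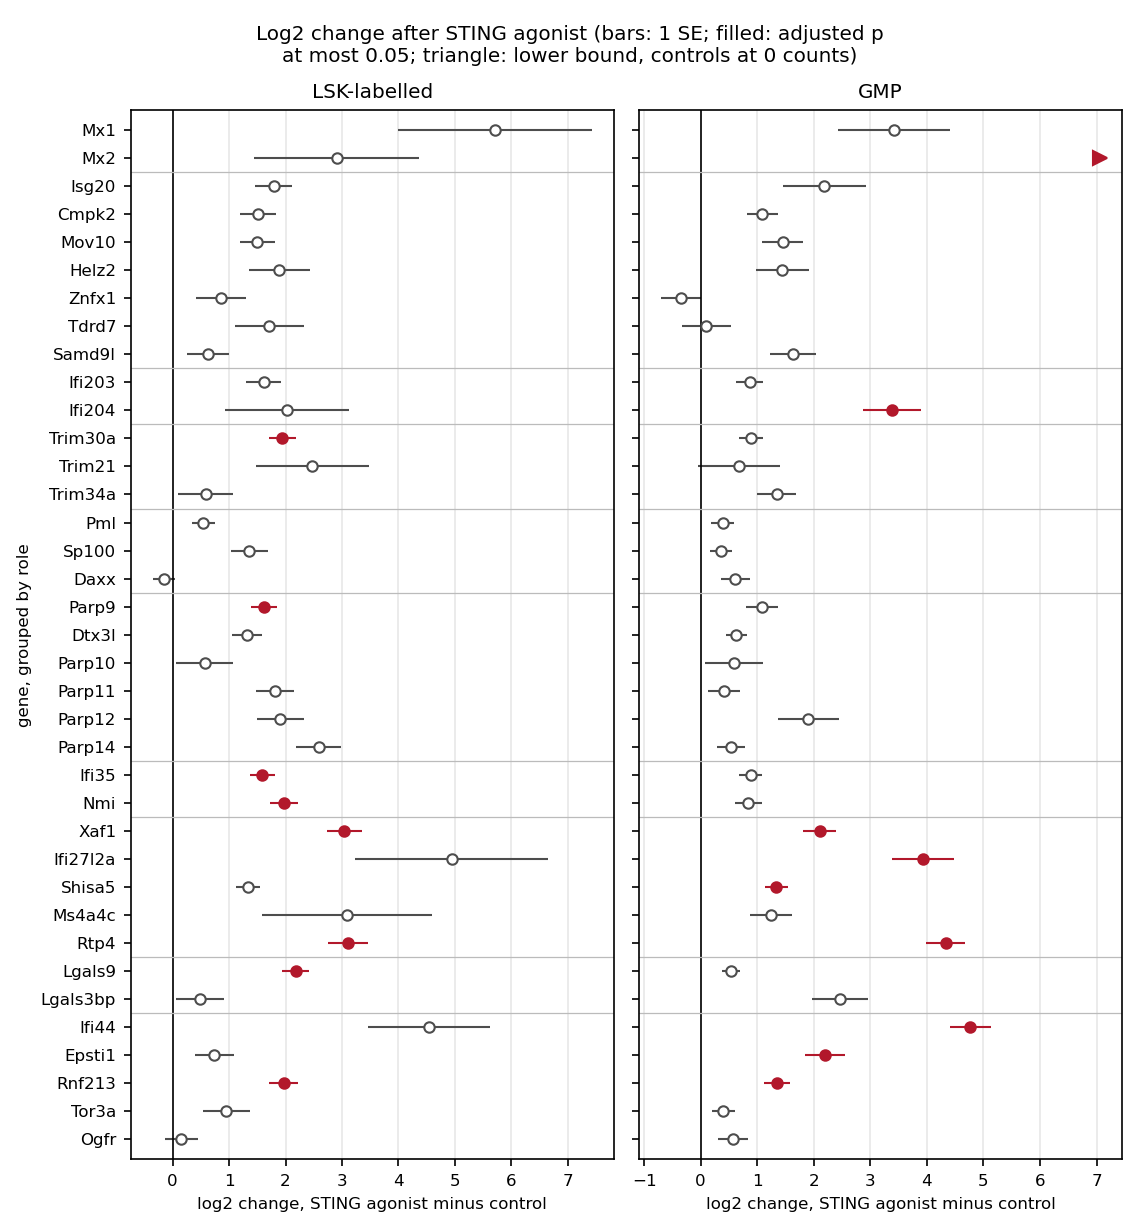
Log2 change after the STING agonist in LSK-labelled cells (left) and GMP (right), with bars of 1 SE from edgeR. Filled symbols mark the 8 and 9 genes at an adjusted p of at most 0.05, and the triangle marks the lower bound for Mx2 in GMP, whose controls had 0 counts.

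Calls fell in both cell types for 3 genes: Xaf1, Rtp4 and Rnf213. The share of all genes called in both was not computed. Xaf1, an antagonist of the apoptosis inhibitor XIAP on chromosome 11 (72301629 to 72313733, GRCm38), was measured at 17.6, 22.7 and 20.8 CPM in LSK-labelled control replicates 1, 2 and 3 and at 140.3, 202 and 111 CPM in the agonist replicates in the same order. Every agonist library was at least 4 times every control, and the log2 change was 3.04 ± 0.31 (SE, n = 3 per group, edgeR adjusted p = 0.00727). In GMP Xaf1 stood at 11.4, 20.3 and 22.1 CPM in controls and 83.5, 73.1 and 63.8 CPM after the agonist. The groups again did not overlap, and the change was 2.10 ± 0.29 (edgeR adjusted p = 0.0150). Its LSK call ended when control replicate 3 or STING agonist replicate 1 was left out, and its GMP call when any of the agonist libraries was.

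Rtp4, a chaperone that helps G-protein-coupled receptors reach the cell surface, lies on chromosome 16 (23520291 to 23614222). It was measured at 44.2, 60.6 and 29.2 CPM in LSK-labelled controls and at 329, 449 and 256 CPM after the agonist, without overlap. The change was 3.10 ± 0.35 on the log2 scale (edgeR adjusted p = 0.0118), and leaving out control replicate 1, control replicate 3 or STING agonist replicate 1 ended the call. GMP controls held 4.25, 5.34 and 8.96 CPM of Rtp4, all lower than any LSK-labelled library, and agonist-treated GMP held 143, 119 and 96.0 CPM. There the change was 4.33 ± 0.34 (edgeR adjusted p = 0.000731), and the call was kept without any 1 library. The annotated span of Rtp4 contains 39791 bases of Gm45338 on the same strand and 300 bases of Masp1 on the other, and reads in those stretches cannot be assigned with certainty.

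Rnf213, a very large ubiquitin ligase that coats intracellular pathogens and lipid droplets, lies on chromosome 11 (119393100 to 119487418). It was measured at 105, 113 and 66.5 CPM in LSK-labelled controls and at 322, 392 and 290.0 CPM after the agonist. The lowest agonist library stood more than 2 times above the highest control, and the change was 1.97 ± 0.26 (edgeR adjusted p = 0.0233). GMP controls stood at 45.5, 70.0 and 40.1 CPM and agonist libraries at 131, 131 and 113 CPM, a change of 1.35 ± 0.23 (edgeR adjusted p = 0.0454). The LSK call was kept only without STING agonist replicate 3, and the GMP call only without control replicate 2. The antisense transcript A930037H05Rik overlaps 38631 bases of Rnf213, and the strand setting of the counting is not given in the sources used here.

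**Figure D3:**
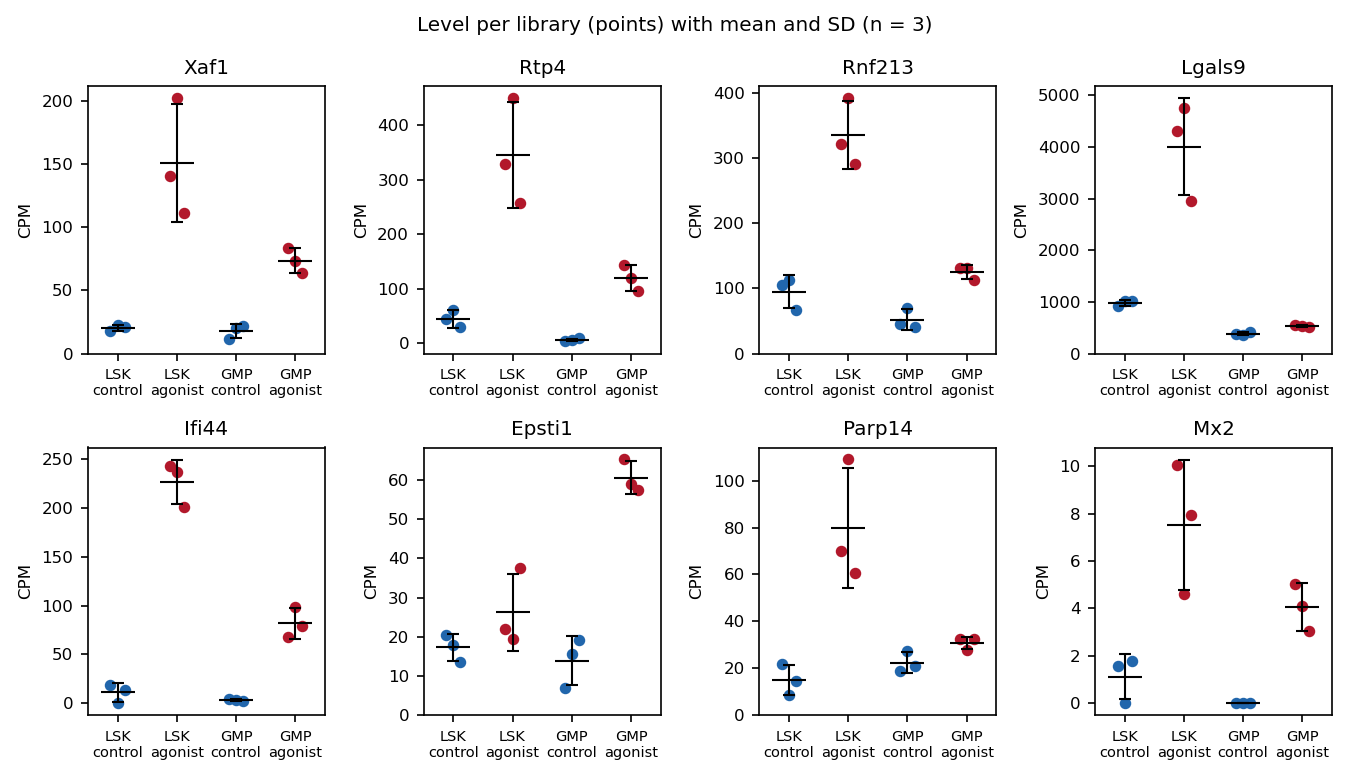
CPM of 8 genes in each library (points; blue, control; red, STING agonist), with mean and SD (n = 3) in black and a separate linear axis for each gene. Agonist and control libraries do not overlap in either cell type for Xaf1, Rtp4, Rnf213, Lgals9, Ifi44, Parp14 and Mx2, whereas Epsti1 overlaps in LSK-labelled cells and not in GMP.

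Mx1 and Mx2 encode dynamin-like GTPases that block incoming viruses; C57BL/6 and most other laboratory mice carry defective alleles, and the deposited tables list Mx2 as a polymorphic pseudogene. They are neighbours on chromosome 16, at 97447035 to 97462907 and 97535308 to 97560900, with 72400 bases between them. Mx2 had 0 counts in all 3 GMP controls and 5.02, 4.10 and 3.02 CPM after the agonist. It was therefore at least 134-fold higher, taking 3 counts over the 3 controls as the limit (edgeR adjusted p = 0.0207), and the call was lost without any of the 3 agonist libraries. In LSK-labelled cells Mx2 stood at 1.56, 0 and 1.76 CPM in controls and 10.0, 4.60 and 7.95 CPM after the agonist, again without overlap, at an adjusted p of 0.483 by edgeR. Mx1 passed in neither cell type by edgeR, and in GMP in the authors' deposited table. Its LSK-labelled controls held 1.26, 0 and 0 CPM and the agonist libraries 29.2, 11.6 and 15.5 CPM. The GMP values of Mx1 were 0.0855, 4.28 and 0.650 CPM in controls and 13.3, 14.0 and 22.5 CPM after the agonist. The log2 changes of Mx1 carried SEs of 1.72 in LSK-labelled cells and 0.99 in GMP, the former with 2 controls at 0.

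By edgeR, 0 of the 7 RNA and nucleotide enzymes were called in either cell type. In the authors' deposited table Isg20, Cmpk2, Mov10, Helz2 and Tdrd7 passed in LSK, and Cmpk2, Mov10 and Samd9l in GMP. Their log2 changes ran from 0.62 to 1.89 in LSK-labelled cells, at edgeR adjusted p of 0.106 to 0.563, and from -0.35 to 2.18 in GMP, at 0.198 to 0.983. The largest change in GMP was that of Isg20, an exonuclease that degrades single-stranded RNA, with 0.656, 0.719 and 3.58 CPM in controls and 8.09, 5.21 and 8.70 CPM after the agonist. Isg20 also had the lowest adjusted p of the group in LSK-labelled cells, where it stood at 8.24, 11.8 and 13.0 CPM in controls and 38.7, 32.8 and 32.5 CPM after the agonist. Cmpk2, a mitochondrial nucleotide kinase, and Mov10, an RNA helicase that restrains retroelements, had no overlap in either cell type. Cmpk2 went from 77.5 ± 26.1 to 201 ± 33.1 CPM in LSK-labelled cells and from 28.1 ± 8.10 to 57.8 ± 4.16 CPM in GMP (SD, n = 3). Mov10 stood at 18.5 ± 5.79 and 47.3 ± 4.94 CPM in LSK-labelled cells, and at 15.7 ± 7.54 and 41.7 ± 8.57 CPM in GMP. Helz2, a large helicase, had the largest change of the group in LSK-labelled cells at 1.89 ± 0.53, with 2.76 to 5.11 CPM in controls and 11.6 to 14.0 CPM after the agonist. Samd9l, an inhibitor of translation in virus-infected cells, had the lowest change there: its LSK-labelled controls at 35.5, 59.1 and 23.2 CPM overlapped the agonist libraries at 66.9, 41.1 and 57.2 CPM. Its GMP libraries did not overlap, at 3.96, 6.91 and 3.61 CPM against 12.4, 10.1 and 20.1 CPM. Znfx1, a helicase that senses viral RNA at mitochondria, and Tdrd7, a tudor domain protein, did not overlap in LSK-labelled cells and overlapped in GMP. Znfx1 in GMP stood at 24.4, 33.0 and 14.7 CPM in controls and 16.7, 23.7 and 13.1 CPM after the agonist. The log2 changes of Tdrd7 were 1.71 ± 0.61 in LSK-labelled cells and 0.10 ± 0.43 in GMP.

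Ifi203 and Ifi204 encode HIN-200 proteins, a family that binds DNA; the Ifi204 product is a DNA sensor that can act upstream of STING. Both lie on chromosome 1, with 153463 bases between them, and Ifi203 overlaps its relative Mndal over 22085 bases on the same strand, so that its counts are uncertain. Ifi204 (173747293 to 173766943) stood at 1.65, 6.84 and 2.01 CPM in GMP controls and at 35.5, 32.9 and 34.5 CPM after the agonist. The agonist libraries lay within 3 CPM of one another and above every control, with a change of 3.38 ± 0.51 (edgeR adjusted p = 0.0244) that remained called only without control replicate 2. In LSK-labelled cells Ifi204 was at 1.29, 2.56 and 1.31 CPM in controls and at 3.94, 0.673 and 15.3 CPM after the agonist. The groups overlapped, and the high library, agonist replicate 3, was also the one with the highest sum of mature neutrophil genes, 367 CPM; its part in the value was not tested. Ifi203 passed in neither cell type by edgeR and in both in the authors' deposited table. Its agonist libraries lay above its controls in both. It stood at 22.1 ± 7.02 and 61.3 ± 14.7 CPM in LSK-labelled cells (log2 change 1.62 ± 0.31, edgeR adjusted p = 0.122) and at 40.8 ± 10.6 and 71.0 ± 1.20 CPM in GMP (0.86 ± 0.23, 0.236).

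Of the 3 TRIM genes, which encode ubiquitin ligases, Trim30a rose in LSK-labelled cells. Trim30a, a brake on Toll-like receptor signalling at chromosome 7 (104409025 to 104465193), stood at 87.9, 93.1 and 52.3 CPM in controls and 259.8, 262 and 290.2 CPM after the agonist. Its change was 1.95 ± 0.24 (edgeR adjusted p = 0.0177), lost without control replicate 1 or any 1 of the agonist libraries. In GMP the controls were higher, at 154, 118 and 133 CPM, and the agonist libraries stood at 288, 243 and 186 CPM. The GMP groups did not overlap either, and the change of 0.89 ± 0.22 did not pass (edgeR adjusted p = 0.189). Trim34a, a close relative that lies 146790 bases from Trim30a in the same cluster, overlapped in LSK-labelled cells and not in GMP, where it stood at 5.96, 6.37 and 6.33 CPM in controls and 12.8, 12.4 and 20.1 CPM after the agonist. Trim21, the cytosolic antibody receptor, had the largest fitted change of the 3 in LSK-labelled cells, 2.48 ± 0.995 (edgeR adjusted p = 0.394), with 1.56, 0.254 and 0.986 CPM in controls and 7.15, 3.31 and 3.42 CPM after the agonist. It was the least abundant per length in GMP after the agonist, at 0.692 CPM per kb, and did not exceed 7.15 CPM in any library. TRIM genes of this cluster have close copies that can share reads.

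The 3 genes of PML nuclear bodies passed in neither cell type by edgeR. Pml, the scaffold of these bodies, stood at 192, 139 and 125 CPM in LSK-labelled controls and 200.2, 214 and 182 CPM after the agonist. In GMP it was at 70.5, 87.0 and 58.4 CPM and at 91.4, 78.7 and 99.2 CPM. The groups overlapped in both cell types. Sp100, a resident protein of the bodies, had the largest change of the 3 in LSK-labelled cells, from 144, 102 and 60.04 CPM to 235, 281 and 178 CPM (1.35 ± 0.33, edgeR adjusted p = 0.217). Daxx, a histone chaperone recruited to the bodies, was the only one of the 37 with a negative change in LSK-labelled cells, where controls at 168, 205 and 144 CPM overlapped agonist libraries at 132, 139.9 and 149.7 CPM. In GMP its agonist libraries at 98.1, 99.7 and 129.9 CPM lay above its controls at 87.0, 92.4 and 45.6 CPM.

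Parp9 and Dtx3l encode the partners of an ADP-ribose-binding ubiquitin ligase complex. They sit head to head on chromosome 16, Dtx3l at 35926511 to 35939151 on the minus strand and Parp9 at 35938470 to 35972605 on the plus strand, with 682 shared bases at their starts; Parp14 lies 54966 bases from Dtx3l. Parp9 rose in LSK-labelled cells, from 35.1, 33.1 and 31.1 CPM to 73.7, 104 and 98.2 CPM. The controls were close together and every agonist library was over 2 times each of them, with a change of 1.62 ± 0.23 (edgeR adjusted p = 0.0323). That call was lost in all 6 fits that left out 1 library, at adjusted p of 0.0940 to 0.167. Dtx3l did not pass, with 62.3, 59.2 and 35.7 CPM in controls and 113, 133 and 106 CPM after the agonist (1.32 ± 0.26, edgeR adjusted p = 0.134). In GMP, Parp9 stood at 15.2, 23.9 and 22.0 CPM in controls and 33.2, 36.2 and 55.1 CPM after the agonist. The GMP changes of the pair were 1.09 ± 0.28 and 0.63 ± 0.19, also without overlap and without passing. Parp9 and Dtx3l share bases and lie on opposite strands, so that reads at their starts cannot be told apart without strand.

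The other 4 PARP genes encode mono-ADP-ribosyltransferases, and edgeR called 0 of them in the separate fits. In the authors' deposited table Parp11, Parp12 and Parp14 passed in LSK and Parp12 in GMP, and edgeR's joint fit of 12 libraries called Parp11 and Parp14 in LSK. Parp14 had the largest change of the group in LSK-labelled cells, from 21.7, 8.64 and 14.6 CPM to 69.9, 109 and 60.8 CPM. The groups did not overlap, and the change of 2.59 ± 0.40 had an edgeR adjusted p of 0.0528. In GMP its values lay closer together, at 18.7, 27.4 and 20.8 CPM in controls and 32.4, 27.8 and 32.2 CPM after the agonist. Parp11 stood at 17.7, 23.7 and 13.2 CPM in LSK-labelled controls and 66.8, 63.7 and 42.1 CPM after the agonist, a change of 1.81 ± 0.34. In GMP Parp11 overlapped, at 22.7, 19.6 and 14.3 CPM against 24.8, 19.3 and 28.0 CPM. Parp12 had similar fitted changes in both, 1.91 ± 0.41 and 1.90 ± 0.54. Parp10 overlapped in both cell types, with a spread of 12.8 to 47.5 CPM within LSK-labelled controls alone. On the same strand, the span of Parp10 shares 1401 bases with Plec and that of Parp11 shares 2330 bases with Gm43633. Reads in those stretches cannot be assigned with certainty.

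Ifi35 and Nmi, the members of the IFP35 family, form complexes with each other and act on interferon and inflammatory signalling. Both rose in LSK-labelled cells and neither passed in GMP. Ifi35 (chromosome 11, 101448407 to 101458698) stood at 92.9, 88.6 and 97.1 CPM in LSK-labelled controls and at 264, 290.2 and 200.4 CPM after the agonist, a change of 1.59 ± 0.22 (edgeR adjusted p = 0.0323). Nmi (chromosome 2, 51948487 to 51973494) stood at 45.5, 54.0 and 54.2 CPM and at 172, 220.4 and 153 CPM, a change of 1.97 ± 0.24 (edgeR adjusted p = 0.0166). Agonist replicate 3 was the lowest of the agonist libraries for both genes, and both calls were kept only when that library was left out. In GMP, Ifi35 went from 70.1, 76.8 and 93.8 CPM to 155, 144 and 126 CPM, and Nmi from 66.1, 44.7 and 41.2 CPM to 80.8, 101 and 79.5 CPM. Neither pair of groups overlapped, and the changes were 0.88 ± 0.20 (edgeR adjusted p = 0.148) and 0.85 ± 0.24 (0.260).

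The remaining membrane and death-related genes are Ifi27l2a, Shisa5 and Ms4a4c. Ifi27l2a, of a family of small mitochondrial and nuclear membrane proteins, lies on chromosome 12 (103442167 to 103443680) and stood at 0.399, 0.9998 and 1.66 CPM in GMP controls and 14.3, 16.1 and 14.5 CPM after the agonist. It rose by 3.94 ± 0.55 (edgeR adjusted p = 0.0163), with the call lost without any 1 agonist library. In LSK-labelled cells it was lower throughout, with 0.368, 0 and 0.0598 CPM in controls and 3.66, 0.966 and 7.33 CPM after the agonist. Shisa5, an endoplasmic reticulum protein that promotes apoptosis, lies on chromosome 9 (109038565 to 109057777). Its values were 54.5, 49.7 and 47.9 CPM in LSK-labelled controls and 116, 90.5 and 142 CPM after the agonist, and 52.2, 70.6 and 46.5 CPM and 129, 126 and 153 CPM in GMP. The fitted changes were 1.33 ± 0.21 in LSK-labelled cells (edgeR adjusted p = 0.0557) and 1.34 ± 0.20 in GMP (edgeR adjusted p = 0.0226), so that the threshold separated changes of nearly the same size. The GMP call of Shisa5 was kept only without control replicate 2 or 3. Ms4a4c, a membrane protein with 4 spans in a cluster of close copies, had no overlap in either cell type and passed in neither. Its LSK-labelled libraries held 2.18, 0 and 1.70 CPM and then 2.70, 9.57 and 17.6 CPM, and its GMP libraries 33.4, 21.1 and 12.2 CPM and then 61.7, 51.8 and 36.3 CPM.

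Lgals9 encodes galectin-9, a glycan-binding lectin that is a ligand of the T cell receptor TIM-3. It lies on chromosome 11 (78962974 to 78984946) and was the most abundant of the 37 genes per length in all 4 groups, at 459 CPM per kb in LSK-labelled controls and 178 CPM per kb in GMP controls. In LSK-labelled cells it stood at 911, 1016 and 1016 CPM in controls and 4308, 4759.9 and 2951 CPM after the agonist. The lowest agonist library was nearly 3 times the highest control, and the change was 2.18 ± 0.24 (edgeR adjusted p = 0.0116). The call was kept only without agonist replicate 2 or 3. In GMP the controls were at 380.3, 351 and 411 CPM and the agonist libraries at 551, 536 and 504 CPM. These did not overlap, and the change of 0.54 ± 0.16 did not pass (edgeR adjusted p = 0.287). Lgals3bp, a secreted glycoprotein that binds galectin-3, overlapped in LSK-labelled cells, where agonist replicate 3 at 57.5 CPM stood apart from 19.0 and 21.4 CPM. In GMP it went from 7.27, 7.41 and 12.5 CPM to 26.8, 28.8 and 89.5 CPM, a change of 2.46 ± 0.49 (edgeR adjusted p = 0.0890).

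Ifi44, a cytoplasmic protein of uncertain biochemical function on chromosome 3 (151730922 to 151749960), had the smallest adjusted p of the 37 in GMP. Its GMP controls held 4.33, 3.31 and 1.80 CPM and its agonist libraries 67.9, 98.4 and 78.6 CPM. Every agonist library was over 10 times every control, and the change of 4.77 ± 0.36 (edgeR adjusted p = 0.000577) was called without any 1 library. In LSK-labelled cells Ifi44 stood at 18.9, 0.275 and 13.8 CPM in controls and 243, 237 and 201 CPM after the agonist. The fitted change was 4.54 ± 1.08, at an edgeR adjusted p of 0.217. Control replicate 2 held 13 counts of Ifi44, and without that library the gene was called. Epsti1, which promotes macrophage activation, lies on chromosome 14 (77904239 to 78002657) and rose in GMP from 6.93, 15.5 and 19.1 CPM to 65.4, 58.9 and 57.5 CPM. The change was 2.19 ± 0.35 (edgeR adjusted p = 0.0362) and was kept only without control replicate 1 or 3. In LSK-labelled cells Epsti1 overlapped, at 20.3, 17.9 and 13.6 CPM against 21.9, 19.4 and 37.5 CPM. Tor3a, a torsin ATPase of the endoplasmic reticulum, and Ogfr, the opioid growth factor receptor, overlapped in both cell types. Their changes were 0.95 ± 0.41 and 0.15 ± 0.29 in LSK-labelled cells, and 0.40 ± 0.20 and 0.57 ± 0.26 in GMP.

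Whether the agonist changed these genes differently in the 2 cell types was tested as an interaction in a joint fit of all 12 libraries. edgeR called 0 of the 37 genes, and 0% of all 16857 genes tested. At an unadjusted p under 0.05 stood 12 of the 37 and 10.1% of all genes. DESeq2 called 2 of the 37, Lgals9 and Parp14, and 1.05% of the 24982 genes it was given. The difference of log2 changes, GMP minus LSK-labelled, was negative for 22 of the 37 genes and positive for 15, and negative for 49.7% of all genes. Its median was -0.48 against 0.01 over all genes. Lgals9 had the smallest p, with a difference of -1.59 ± 0.29 (edgeR adjusted p = 0.177), which reached 0.0226 without LSK STING agonist replicate 3. Parp14 was next at -2.01 ± 0.47 (edgeR adjusted p = 0.374). The differences of Nmi, Trim30a and Parp11 were -1.08 ± 0.35, -1.01 ± 0.33 and -1.36 ± 0.44. In the other direction, Epsti1 differed by 1.51 ± 0.50, Lgals3bp by 2.02 ± 0.71 and Rtp4 by 1.28 ± 0.48. Mx2 also lay in that direction, without a usable size because of its 0 counts.

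**Figure D4:**
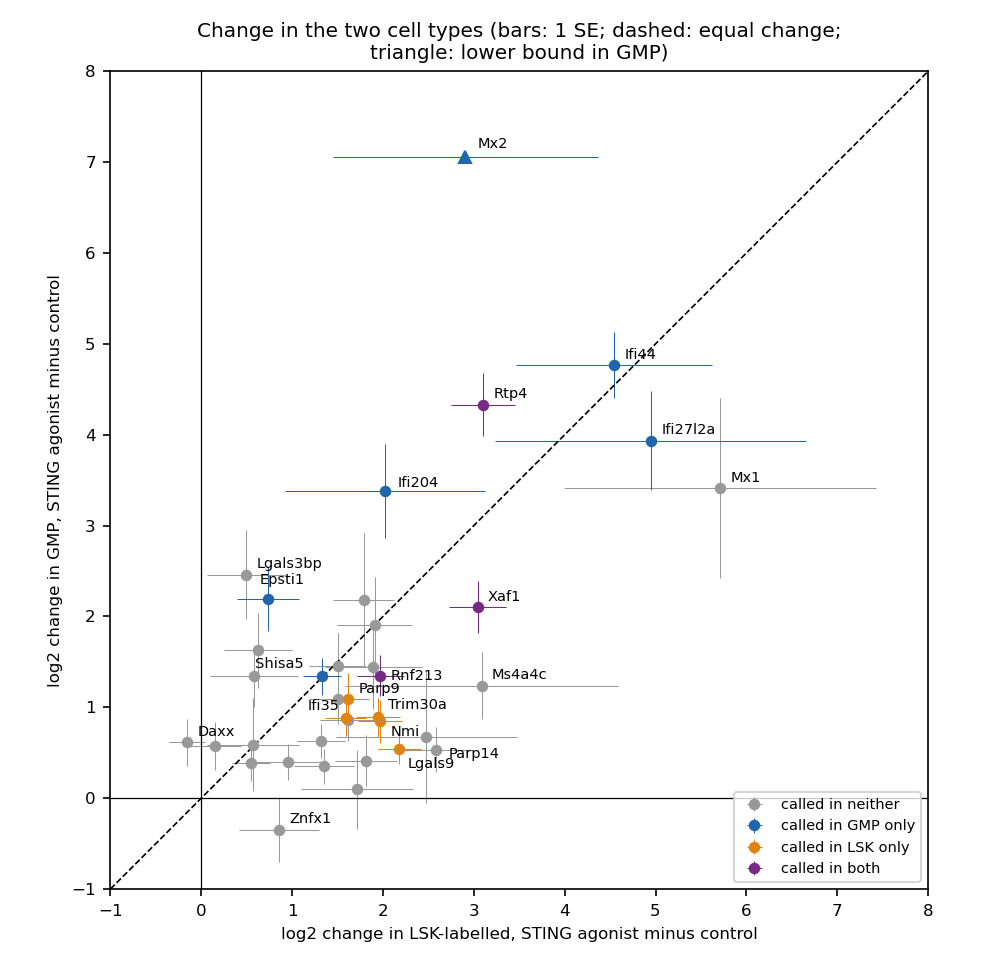
Log2 change of each of the 37 genes in LSK-labelled cells (horizontal) and in GMP (vertical), with bars of 1 SE, coloured by the cell types in which the gene was called. Points below the dashed line of equal change, such as Lgals9 at 2.18 and 0.54, had the larger fitted change in LSK-labelled cells, those above it, such as Rtp4 at 3.10 and 4.33, had it in GMP, and the triangle is the lower bound of Mx2.

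The control libraries differed between the cell types before any agonist. In the joint fit 13 of the 37 genes were called between GMP and LSK-labelled controls. Higher in GMP were 4, against 4.55% of all genes, and lower in GMP were 9, against 6.98%. Fitted on the 6 control libraries alone, 1 of the 36 tested was higher, Tor3a, and 6 were lower. Of all 14525 genes tested in that fit, 620 were higher in GMP and 732 lower. Ms4a4c, Znfx1, Trim30a, Isg20 and Rnf213 lost their calls there, and Mx2 did not pass the filter on low counts. The median difference, GMP minus LSK-labelled, was -0.20 against 0.04 over all genes.

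Higher in GMP controls were Ms4a4c, Tor3a, Znfx1 and Trim30a. Tor3a stood at 58.6, 63.6 and 58.7 CPM in GMP controls and 29.4, 14.7 and 13.3 CPM in LSK-labelled controls, a log2 difference of 1.67 ± 0.33 (edgeR adjusted p = 0.00661). Znfx1, with the GMP values given above and 9.22, 8.68 and 8.52 CPM in LSK-labelled controls, differed by 1.43 ± 0.40 (edgeR adjusted p = 0.0363). Ms4a4c differed by 4.14 ± 1.08, with LSK-labelled control replicate 2 at 0, and Trim30a by 0.79 ± 0.23. None of these 4 overlapped between the cell types. Tor3a was called in all 12 fits that left out 1 library, Ms4a4c in 10, and Znfx1 and Trim30a in 5 each. Ms4a4c lost its call without LSK control replicate 3 or GMP control replicate 1. Znfx1 lost its call without any LSK control, GMP control replicate 1 or 2, or GMP STING agonist replicate 1 or 2. Trim30a lost its call without LSK control replicate 1 or 3, LSK STING agonist replicate 1, GMP control replicate 1 or 3, or GMP STING agonist replicate 1 or 2.

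Lower in GMP controls were Samd9l, Rtp4, Isg20, Cmpk2, Lgals9, Daxx, Pml, Rnf213 and Mx2. Apart from Mx2, the largest fitted difference among them was that of Samd9l, -3.05 ± 0.42 (edgeR adjusted p = 0.000778), with 3.61 to 6.91 CPM in GMP against 23.2 to 59.1 CPM in LSK-labelled controls. Rtp4 differed by -2.86 ± 0.36 and Isg20 by -2.75 ± 0.61. Cmpk2 stood at 31.4, 18.9 and 34.0 CPM in GMP controls and 47.7, 87.9 and 96.8 CPM in LSK-labelled controls, a difference of -1.48 ± 0.31. Lgals9 differed by -1.38 ± 0.21, Daxx by -1.22 ± 0.25 and Pml by -1.08 ± 0.20. These 7 did not overlap between the cell types and were called in all 12 fits that left out 1 library. Mx2 had 110 counts over the LSK-labelled controls and 0 over the GMP controls, at least 32.7-fold lower against the same limit of 3 counts. It overlapped, since LSK control replicate 2 also held 0 counts, and the bound rests on LSK control replicates 1 and 3. Its call was lost without LSK control replicate 3 or any of the GMP controls. Rnf213 overlapped, differed by -0.89 ± 0.25 (edgeR adjusted p = 0.0374) and was kept in 4 of the 12 fits. It was lost without LSK control replicate 1 or 2, LSK STING agonist replicate 1, GMP control replicate 1 or 3, or any GMP agonist library.

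**Figure D5:**
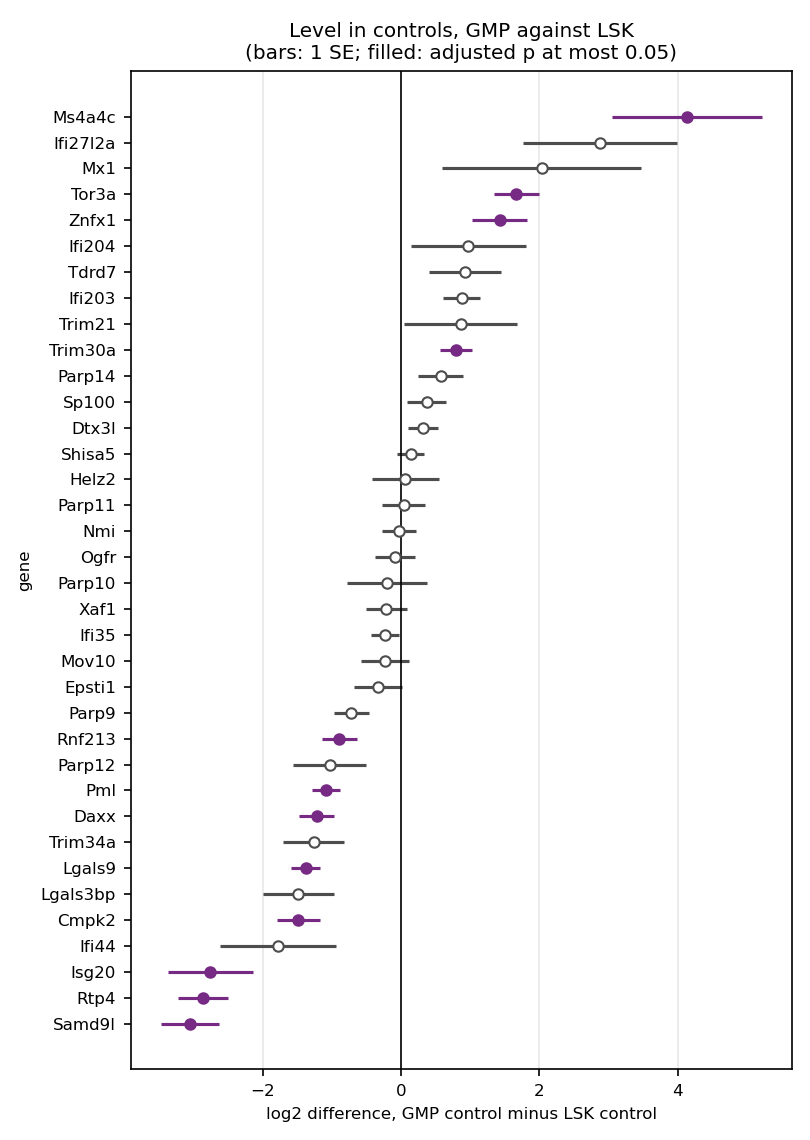
Log2 difference in level between GMP and LSK-labelled controls for 36 of the 37 genes, ordered by size, with bars of 1 SE; filled symbols have an edgeR adjusted p of at most 0.05. Samd9l, Rtp4 and Isg20 lie lowest, at -3.05 to -2.75, and Ms4a4c highest at 4.14; Mx2 is left out because GMP controls had 0 counts.

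A list of 19 interferon pathway genes gives transcript levels of receptors, kinases, factors and related genes, and not their activity. In LSK-labelled cells Irf7, the factor that amplifies interferon production, rose by 3.77 ± 0.33 (edgeR adjusted p = 0.00358), and Usp18, which restrains the receptor, by 3.13 ± 0.35 (0.0117); 0 of the 16 tested fell. Of 16 tested in GMP 1 rose, Irf7, from 0.513, 0.750 and 1.005 CPM to 24.7, 16.3 and 31.4 CPM (5.05 ± 0.44, edgeR adjusted p = 0.00122), and 0 fell. Tmem173, the STING gene, stood at 0.508 to 5.85 CPM in LSK-labelled controls and 11.8 to 34.3 CPM in GMP controls. Ifnb1 was at 0 CPM in all GMP libraries but 1, at 0.0979 CPM.

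In the authors' deposited table of comparisons, 22 of the 37 genes had an adjusted p of at most 0.05 in LSK, all higher, against 2.59% of the genes with such a value. In GMP the authors' deposited table gave 20, all higher, against 1.59%. All 8 LSK and 9 GMP genes called by edgeR were among them, as were the RNA and nucleotide enzymes and PARP genes named above. The rest were Dtx3l, Ifi203, Ifi27l2a, Ifi44, Shisa5 and Sp100 in LSK. In GMP they were Ifi203, Ifi35, Lgals3bp, Mx1, Parp9, Trim30a and Trim34a. DESeq2 on the deposited counts called the same 22 genes in LSK and the same 20 in GMP, so its calls are not a separate result. Both cell types passed for 13 genes in the authors' deposited table, and neither for 8, namely Ogfr, Parp10, Pml, Ms4a4c, Znfx1, Trim21, Daxx and Tor3a. The shares of all genes that passed in both or in neither were not computed, so these counts have no background beside them.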

How the data were processed

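Per the file headers, the deposited tables, 1 for LSK and 1 for GMP, hold raw read counts for each Ensembl gene and the authors' log2 fold change, p-value and adjusted p. In each, 1 line without a gene was dropped. How reads were aligned, counted and stranded, and which test the authors ran, is not given in the sources used here. Build mm9 is named in the submitters' processing notes, whereas 36 of the 37 positions (Daxx differed) were those of GRCm38 in GENCODE M21, so positions are GRCm38.

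Levels are CPM by library total; log2 changes use TMM factors. Counts were tested with edgeR 4.0.16 in R 4.3.3 (quasi-likelihood, filterByExpr, no fold threshold, Benjamini-Hochberg at 0.05 over all genes) in the 6 LSK and the 6 GMP libraries separately; the interaction and the control contrast came from a joint fit on genes in both tables. SE is the size of the log2 change divided by the square root of F. The fits were run on counts simulated from their own fitted spread, with changes planted only in genes above a set level. Such a run cannot speak to genes near 0 counts or to the weight of single libraries. Alternatives were DESeq2 1.42.0, other scalings, no filter, a replicate block, a joint fit and leaving out each library. Floors cover counting error only, since reads carry no molecular identifiers.

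Members, role groups, lists and motifs were chosen with earlier results of these data known. Every member is named, with each library of the comparison for those called and levels or log2 changes for the highest or lowest of a role group; other printed values were chosen after they were seen. Promoters were to be shown for members called in both cell types and for Parp9 and Dtx3l. Rtp4 and Parp9 had no RefSeq match, the Rnf213 start lies 3001 bases upstream of the listed gene, and the Dtx3l window holds an annotated exon. Of the interferon pathway list, 1 item is not reported here.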

Additional observations from a re-analysis of the deposited data

How the results depend on the processing

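The count of called genes depended on the test and the filter more than on the scaling. In LSK-labelled cells it was 8 in the main fit, 20 without a filter on low counts, 22 with DESeq2, 14 in the joint fit of 12 libraries, and 0 to 6 when 1 library was left out. In GMP it was 9, then 19, 20, 5 and 2 to 9 in the same order. For the interaction it was 0, or 2 with DESeq2, and 0 to 1 when 1 library was left out. Between controls it was 13, or 7 (1 higher in GMP and 6 lower) in the 6 control libraries alone, and 9 to 14 when 1 library was left out. Over all genes, LSK calls numbered 47 higher and 0 lower in the main fit, 272 and 285 without a filter, and 398 and 379 with DESeq2; GMP calls numbered 58 and 6, 159 and 116, and 269 and 187. The causes of these shifts were not tested. Median-of-ratios factors gave 8, 9, 0 and 13, and library totals 7, 8, 0 and 13; library totals moved the all-gene median in LSK from 0.02 to -0.12, and neither scaling reversed the agonist's change for any of the 37. With the replicate number as a block, LSK calls numbered 1 (Rtp4), GMP calls 2 (Rtp4 and Ifi44) and interaction calls 0. Calls between controls numbered 11 (1 higher in GMP and 10 lower, against 4 and 9 without the block). Over all genes the block gave 10 higher and 0 lower of 13922 in LSK, and 20 and 0 of 15027 in GMP. Between controls it gave 774 and 1325 of 16857. After subtraction of group means, same-numbered libraries correlated at 0.0643, 0.151 and 0.0246 in LSK and at 0.0284, -0.0225 and 0.0231 in GMP. Between the controls of the cell types they correlated at -0.00458, 0.0264 and 0.102. Differently numbered libraries gave -0.167 to 0.136, -0.0704 to 0.0486 and -0.0824 to 0.0442 in the same order. The highest same-numbered value exceeded all of these in LSK and between controls, and not in GMP. No label pairs the replicate numbers, and they were not taken as pairs. Leaving out 1 library reversed the log2 change of Daxx in LSK without control replicate 2, over a range of -0.26 to 0.012. It did so for Lgals3bp in LSK (-0.13 to 0.75) and Ogfr in LSK (-0.035 to 0.37) without STING agonist replicate 3. For Tdrd7 in GMP (-0.11 to 0.50) it did so without control replicate 1, control replicate 2 or STING agonist replicate 2. Of the other values per gene and setting, 39 in GMP and 42 in LSK lost a call and 24 and 34 gained one. Mx1, Mx2, Ifi27l2a and Ms4a4c had 0 counts in LSK control replicate 2, the deepest library at 47225983 counts, and SEs of 1.46 to 1.72 on the log2 scale in LSK.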
